A study of Mus musculus with 14 samples.

Results

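The 10 genes described here encode angiogenic and vasoactive factors: the hypoxia-inducible transcription factor subunit Hif1a, the vessel growth factors Vegfa, Angpt1 and Angpt2, the VEGF receptors Kdr and Flt1, the angiogenesis inhibitor Thbs1, and the vasoactive genes Adm, Edn1 and Nos3. They were taken by symbol, with each gene measured at the probe set of highest mean level over the 14 arrays that carried its symbol alone. All 10 were found, on 21 probe sets, among 18193 named genes and 45037 probe sets. The study asked how 4 blockers of estrogen receptors act on gene expression in the mouse mammary gland, alone and against estradiol. Its groups were estradiol (E2), E2+acolbifene, E2+fulvestrant, E2+raloxifene, E2+tamoxifen, acolbifene, fulvestrant, raloxifene, tamoxifen and vehicle. Acolbifene, raloxifene and tamoxifen are selective estrogen receptor modulators, and fulvestrant is an antagonist that leads to loss of the receptor. Every mouse, vehicle mice included, was a female C57BL/6 aged 11 to 12 weeks on arrival, given 1 week to settle and ovariectomized 7 days before treatment. Glands were taken 3 h after dosing, so the data show a single early time. The glands of a group of 8 mice were pooled, and the E2, E2+acolbifene, acolbifene and vehicle groups had 2 arrays each while the other 6 groups had 1 array each. The raw-file names of the 2 arrays of a group share a sample code and nothing says that they came from separate pools, so the p-values measure the spread between these arrays, which may be technical.

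Blood vessel growth is driven by VEGF-A, which signals through the receptor encoded by Kdr, while the product of Flt1 binds the same ligand tightly and limits its access to the signalling receptor. Hypoxia-inducible factor turns on Vegfa and Adm when oxygen is low, and Vegfa is also known as an estrogen-responsive gene in the uterus. Thrombospondin-1 opposes angiogenesis, adrenomedullin and the nitric oxide made by the enzyme of Nos3 widen vessels, and endothelin-1 narrows them.

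Promoter sequences are shown for the members that passed the test in a comparison of replicated groups and have a window in the RefSeq table of build GRCm38.p6, so that the motifs hypoxia-inducible factor and the estrogen receptor are known to bind can be looked for beside the changes given further on. Windows run from 250 bases before to 50 bases after the annotated start, and 6 of the 10 members matched the table, with 7 windows. Capitals mark each match, on either strand, to the hypoxia response cores ACGTG and GCGTG, the palindromic estrogen response element, its core GGTCA, the AP-1 site TGANTCA, the cyclic AMP response element TGACGTCA and the GC box GGGCGG.
Hif1a (chr12:73907617-73907916, plus strand): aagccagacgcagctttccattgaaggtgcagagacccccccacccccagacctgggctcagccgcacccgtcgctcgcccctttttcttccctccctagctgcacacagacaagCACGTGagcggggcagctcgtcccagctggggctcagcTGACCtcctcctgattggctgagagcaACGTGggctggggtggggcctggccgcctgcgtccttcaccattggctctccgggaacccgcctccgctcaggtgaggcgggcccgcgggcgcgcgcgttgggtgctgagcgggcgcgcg
Vegfa (chr17:46032328-46032627, minus strand): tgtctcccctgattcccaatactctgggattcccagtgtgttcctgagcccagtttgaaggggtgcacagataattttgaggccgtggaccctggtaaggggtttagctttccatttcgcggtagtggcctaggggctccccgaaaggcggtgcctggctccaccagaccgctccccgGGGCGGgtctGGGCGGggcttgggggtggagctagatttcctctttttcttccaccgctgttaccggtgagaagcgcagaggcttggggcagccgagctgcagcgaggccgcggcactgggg
Kdr (chr5:75978406-75978705, minus strand): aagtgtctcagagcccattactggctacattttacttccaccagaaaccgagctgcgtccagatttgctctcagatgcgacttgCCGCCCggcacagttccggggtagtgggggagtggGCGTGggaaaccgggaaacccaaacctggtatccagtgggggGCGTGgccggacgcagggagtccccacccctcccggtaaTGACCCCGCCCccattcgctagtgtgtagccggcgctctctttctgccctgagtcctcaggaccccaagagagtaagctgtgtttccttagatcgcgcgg
Adm (chr7:110627407-110627706, plus strand): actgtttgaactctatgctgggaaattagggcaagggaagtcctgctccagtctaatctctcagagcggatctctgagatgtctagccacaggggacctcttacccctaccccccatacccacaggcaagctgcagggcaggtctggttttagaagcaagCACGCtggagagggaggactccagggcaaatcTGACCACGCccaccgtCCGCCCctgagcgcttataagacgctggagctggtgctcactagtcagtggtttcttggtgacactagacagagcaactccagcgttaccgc

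The Hif1a window held 3 matches to ACGTG, of which the pair at -135 and -134 overlap in the palindrome CACGTG, and the third lay at -70; positions are those of the first base of the match, counted from the annotated start. Its single GGTCA lay at -97 on the opposite strand. The Vegfa window held GC boxes at -72 and -62 and none of the other letters searched, and a second annotated Vegfa window (chr17:46025114-46025413), not printed, held 1 ACGTG, 1 GCGTG, 1 GGTCA and 1 GC box. The Kdr window held GCGTG at -131 and -89, GC boxes at -166 and -45 and GGTCA at -50. The Adm window held GCGTG at -90 and -54, both on the opposite strand, a GC box at -42 and a GGTCA at -58 that overlaps the second GCGTG by 1 base. None of these windows held the full estrogen response element. The short motifs are common: of 32851 windows, 19.6% held ACGTG, 32.4% GCGTG, 40.5% GGTCA, 35.7% GGGCGG, 7.81% TGANTCA, 1.79% TGACGTCA and 0.07% the full estrogen response element.

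The medians of the arrays ran from 7.16 to 7.23 in log2 units. A code in the raw-file names, left unexplained by the labels, splits the arrays: R136 marks the 6 arrays without a replicate and E2 array 1, and R137 marks the other 7. For an array without a replicate, the code and the treatment cannot be told apart except through the 2 E2 arrays. The raw-file name of the raloxifene array also shares its sample code with those of the E2+acolbifene arrays. That array differed by more than 1.5-fold from the E2+acolbifene arrays on 280 and 237 probe sets. Among arrays with its own code, R136, the number was 88 for E2+raloxifene, 94 for tamoxifen, 103 for fulvestrant, 182 for E2+fulvestrant, 329 for E2+tamoxifen and 396 for E2 array 1. Among R137 arrays the E2+acolbifene arrays were the nearest, since the other 5 differed on 599 to 947 probe sets. These distances do not settle the label, and the values are given as those of the array labelled raloxifene. All 10 mammary epithelial markers were measured. The 3 that passed the test after E2 were Krt14, Krt5 and the progesterone receptor gene Pgr, which was 2.76 log2 units higher than in vehicle glands. These changes do not check the tissue label. On the vehicle arrays the mean level was 9.37 and 9.30 for the epithelial markers, 12.57 and 12.67 for 7 adipocyte markers and 12.95 and 12.99 for 7 fibroblast markers. Skeletal muscle genes varied most between arrays, the mean level of 12 such genes being 9.32 and 10.59 on the E2 arrays, 8.59 on the E2+raloxifene array and 10.82 on the fulvestrant array, against 10.13 and 10.14 on the vehicle arrays.

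Estradiol raised Thbs1, Hif1a and Adm within 3 h, and Vegfa was higher on both E2 arrays without passing the test. Acolbifene alone raised Thbs1. In E2+acolbifene, Hif1a and Vegfa were below E2, Thbs1 was above vehicle but below E2, and Kdr was below vehicle. By limma with Benjamini-Hochberg adjustment over all 45037 probe sets, 3 of the 10 members were higher and 0 lower after E2 than vehicle. At an unadjusted p under 0.05, 4 members were higher and 1 lower, where 8878 of the 45037 probe sets differed in either direction. After adjustment, 2.07% of all probe sets were higher and 1.67% lower. For acolbifene minus vehicle, 1 member was higher and 0 lower, against 0.406% and 0.191% of all probe sets. For E2+acolbifene minus vehicle, 1 member was higher and 1 lower, against 0.453% and 0.384%. Set against E2, 0 members were higher and 3 lower in E2+acolbifene, where 1.63% of all probe sets were higher and 2.03% lower. Set against acolbifene, 0 members were higher and 1 lower in E2+acolbifene, where 3.52% were higher and 5.67% lower, so this share is near that of all probe sets. The acolbifene effect with E2 minus that without E2 was positive for 0 members and negative for 3, against 1.55% and 2.92% of all probe sets. Several of these comparisons share arrays, so their counts are not independent of each other. The members were chosen with earlier results of these data known, so the shares of all probe sets are a background and not a test. Each member was also read at its probe set of highest mean, while the shares include dim probe sets. With dim probe sets left out, 1102 of 27022 were higher and 1071 lower in E2 minus vehicle. The median change of the 10 members after E2 was 0.13, against -0.02 over all probe sets, and in E2+acolbifene minus E2 it was -0.23, against 0.02. Bulk tissue was measured, so fewer cells of a type and less RNA per cell cannot be told apart for any gene.

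**Figure D1:**
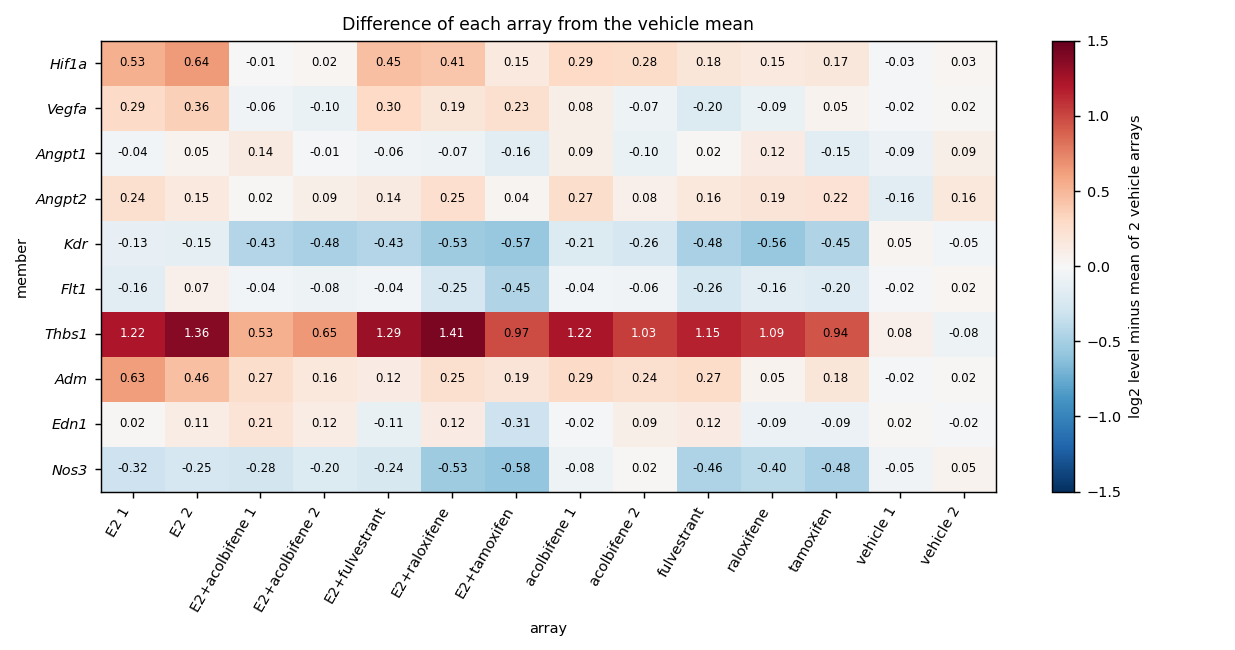
Each cell gives the log2 level of 1 member (rows) on 1 array (columns) minus the mean of the 2 vehicle arrays, red for higher and blue for lower. Thbs1 lay 0.53 to 1.41 above the vehicle mean on all 12 other arrays, Kdr differed from it by -0.57 to -0.13, and the E2+acolbifene arrays were the least raised for Thbs1 and Hif1a.

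**Figure D2:**
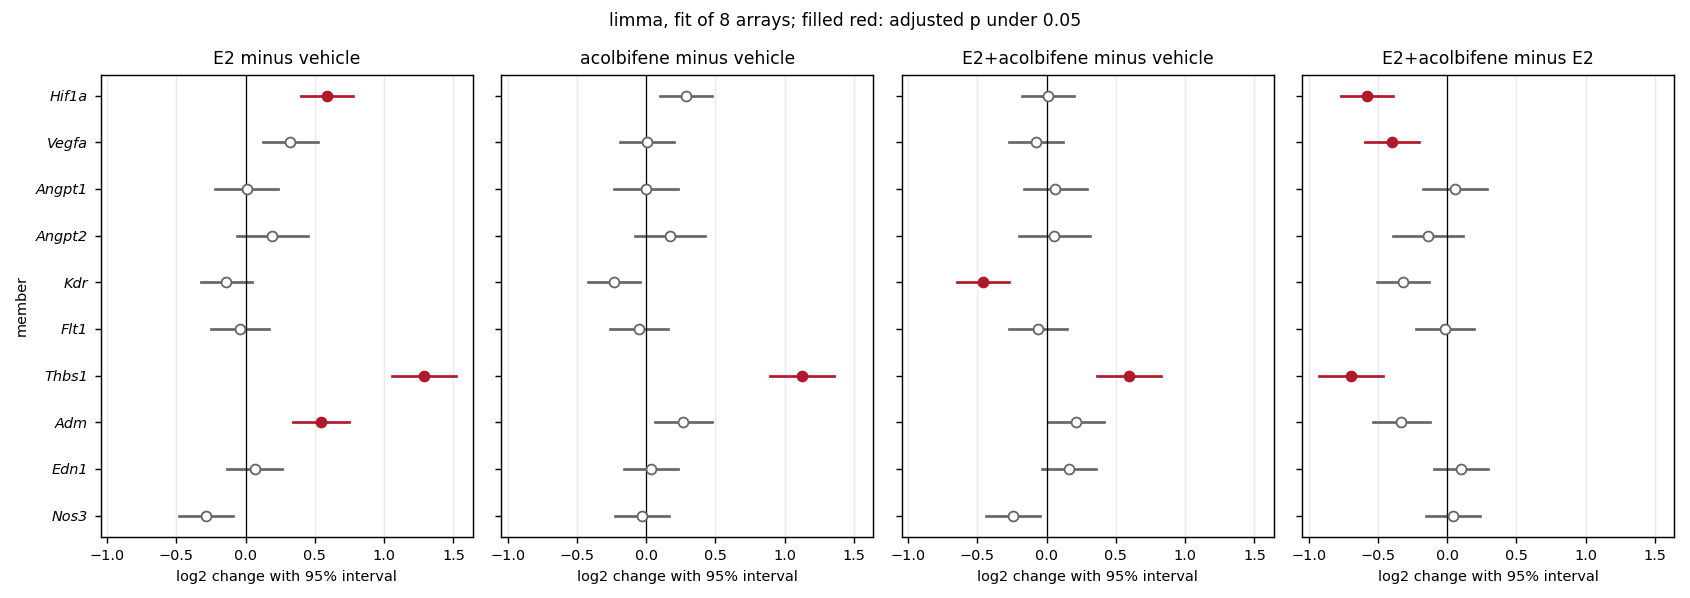
Points are log2 changes from limma's fit of 8 arrays and bars their 95% intervals for the 10 members in 4 comparisons, filled red where the adjusted p was under 0.05. Thbs1 changed by 1.29 in E2 minus vehicle and by -0.70 in E2+acolbifene minus E2, with Hif1a at 0.59 and -0.58.

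Hif1a, the oxygen-regulated subunit of hypoxia-inducible factor, was raised by E2, and on its probe set of highest mean it was lower in E2+acolbifene than in E2. That probe set, 1427418_a_at, read 11.66 and 11.78 on the E2 arrays, 11.13 and 11.16 on the E2+acolbifene arrays, 11.43 and 11.42 on the acolbifene arrays, and 11.10 and 11.17 on the vehicle arrays. The E2 arrays were the highest of all 14, and the E2+acolbifene arrays overlapped with vehicle. The E2 effect was 0.59 ± 0.09 (SE, 1.501-fold, adjusted p = 0.00421, n = 2 arrays each), and it passed the test in 15 of 15 alternative settings. Acolbifene alone gave 0.29 ± 0.09 over vehicle, which did not pass the test (adjusted p = 0.153). E2+acolbifene minus vehicle was 0.01, with a 95% interval of -0.18 to 0.20. E2+acolbifene was lower than E2 by -0.58 ± 0.09 (adjusted p = 0.0108), a call lost without E2 array 2 (adjusted p = 0.0698) and without either E2+acolbifene array (0.0599 and 0.0686). Acolbifene's effect in the presence of E2 minus its effect in its absence was -0.86 ± 0.12 (adjusted p = 0.00743), and this was called in 15 of 15 alternatives.

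The other 3 Hif1a probe sets differed in part. After E2, 1416035_at rose by 0.70 (adjusted p = 0.00189) and 1448183_a_at by 0.56 (adjusted p = 0.0103), while 1431981_at gave 0.22 (adjusted p = 0.24). In E2+acolbifene minus E2 the first of these gave -0.53 (adjusted p = 0.0179), the second -0.26 (adjusted p = 0.132) and the last 0.24 (adjusted p = 0.154), so the lower level was called on 2 of the 4 probe sets. In E2+acolbifene minus vehicle the changes of these 3 were 0.17, 0.30 and 0.46, the last with the lowest adjusted p (0.0557). None passed the test. On each of the 3, which measure the same gene on the same arrays, both E2+acolbifene arrays lay above both vehicle arrays. The share of all probe sets that do so was not computed. The overlap with vehicle was seen on 1427418_a_at alone. Averaged over its probe sets, Hif1a gave -0.28 in E2+acolbifene minus E2 (adjusted p = 0.0511). On 1427418_a_at the arrays without a replicate read 11.59 with E2+fulvestrant, 11.55 with E2+raloxifene, 11.29 with E2+tamoxifen, 11.32 with fulvestrant, 11.28 with raloxifene and 11.30 with tamoxifen. In order of mean level E2 was first, followed by E2+fulvestrant, E2+raloxifene and acolbifene, then by fulvestrant, tamoxifen, E2+tamoxifen and raloxifene between 11.28 and 11.32, with E2+acolbifene and vehicle last. These last neighbours overlapped, and the 4 groups before them lay closer together than the 2 E2 arrays did.

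A chosen list held 29 HIF pathway genes and hypoxia targets, of which 27 were measured. After E2, where 2.07% of all probe sets were higher, 2 listed genes were higher and 0 lower, with a median change of 0.05. These were Arnt, the partner subunit of hypoxia-inducible factor (0.49, adjusted p = 0.0207, called in 9 of 15 alternatives), and Ddit4, an inhibitor of mTOR signalling (0.86, adjusted p = 0.00065). Ddit4 was also raised against vehicle by 0.82 in E2+acolbifene (adjusted p = 0.00326) and by 0.77 in acolbifene (adjusted p = 0.0061). P4ha2, a subunit of a collagen-modifying hydroxylase, was also higher after acolbifene (0.47, adjusted p = 0.0484, called in 4 of 15 alternatives). Hk2, the hexokinase that starts glycolysis, was lower in E2+acolbifene than in vehicle by -0.77 (adjusted p = 0.00468) and than in E2 by -0.39 (adjusted p = 0.0459, called in 6 of 15 alternatives). In this list Ddit4 alone was called for the acolbifene effect with E2 minus that without E2 (-0.81, adjusted p = 0.014). Against acolbifene, 6 genes of the list were lower and 0 higher in E2+acolbifene, with a median of -0.21, and the 5 with the largest change were Hk2 (-0.68), P4ha1 (-0.54), Epas1 (-0.41), Slc2a1 (-0.36) and Kdm3a (-0.32). In that comparison 5.67% of all probe sets were lower. With dim probe sets left out, 4184 of 27022 were lower and 1448 higher, with a median change of -0.09. A further quantile normalization gave 480 lower and 661 higher of 45037, so the lower calls of this comparison depend on the processing. Against acolbifene, Hk2 was called in 13 of 15 alternatives, P4ha1 in 12 and Epas1 in 9. Slc2a1, Kdm3a and the last of the 6, Pdk1 (-0.32), were called in 4 each. Cell markers moved in the same comparison, with 6 of 9 macrophage markers (Cd68, Adgre1, C1qa, Cd14, C1qb and Lyz2, from -0.59 to -0.39) and the fibroblast genes Col1a2 (-0.41), Col1a1 (-0.37) and Fn1 (-0.32) lower, and the muscle genes Mylpf (0.99) and Eno3 (0.79) higher. Their part in the changes of this list, or of the other lists in that comparison, was not tested.

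Vegfa, the main growth factor for vessels, was higher on both E2 arrays than on any vehicle array and was lower in E2+acolbifene than in E2. Probe set 1420909_at read 10.82 and 10.90 on the E2 arrays, 10.48 and 10.44 on the E2+acolbifene arrays, 10.62 and 10.47 on the acolbifene arrays, and 10.52 and 10.56 on the vehicle arrays. The E2 and vehicle arrays did not overlap, but the difference of 0.32 ± 0.09 (1.25-fold, 95% interval 0.13 to 0.52) did not pass the test (adjusted p = 0.0723). It passed with an intensity trend (adjusted p = 0.0131), with dim probe sets left out (0.0408) and with a further quantile normalization (0.0464). E2+acolbifene minus E2 was -0.40 ± 0.09 (1.32-fold lower, adjusted p = 0.0389), and this call was lost in 9 of 15 alternatives. The adjusted p was 0.0888 without E2 array 1, 0.193 without E2 array 2, 0.096 and 0.187 without each E2+acolbifene array, and 0.0521 without either vehicle array. Probe set 1451959_a_at gave 0.25 (adjusted p = 0.248) and -0.38 (adjusted p = 0.08) in the same comparisons.

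With the other blockers, Vegfa read 10.84 on the E2+fulvestrant array against 10.34 on the fulvestrant array, 10.72 on E2+raloxifene against 10.44 on raloxifene, and 10.77 on E2+tamoxifen against 10.58 on tamoxifen. The array with E2 was the higher of each of these pairs, by 0.50, 0.28 and 0.19, while E2+acolbifene minus acolbifene was -0.08. None of the 3 differences passed the test in the fit of 14 arrays, and the lowest adjusted p was 0.255. No other member was called there either, where 0.384% of all probe sets were called with fulvestrant, 0.0333% with raloxifene and 0.18% with tamoxifen. All 3 pairs ran upward in 11.7% of all probe sets and downward in 11.1%. Among the members Vegfa and Thbs1 ran upward in all 3 pairs and Angpt1 downward. On 1451959_a_at the differences were 0.13, -0.01 and 0.35. The groups with E2 other than E2+acolbifene held the 4 highest Vegfa levels on 1420909_at, in the order E2, E2+fulvestrant, E2+tamoxifen and E2+raloxifene. The first 2 of these lay closer together than the 2 E2 arrays, and fulvestrant held the lowest level. This order did not hold on 1451959_a_at, where E2+raloxifene was the lowest group (9.34) and acolbifene (9.79) lay above E2+fulvestrant (9.62).

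**Figure D3:**
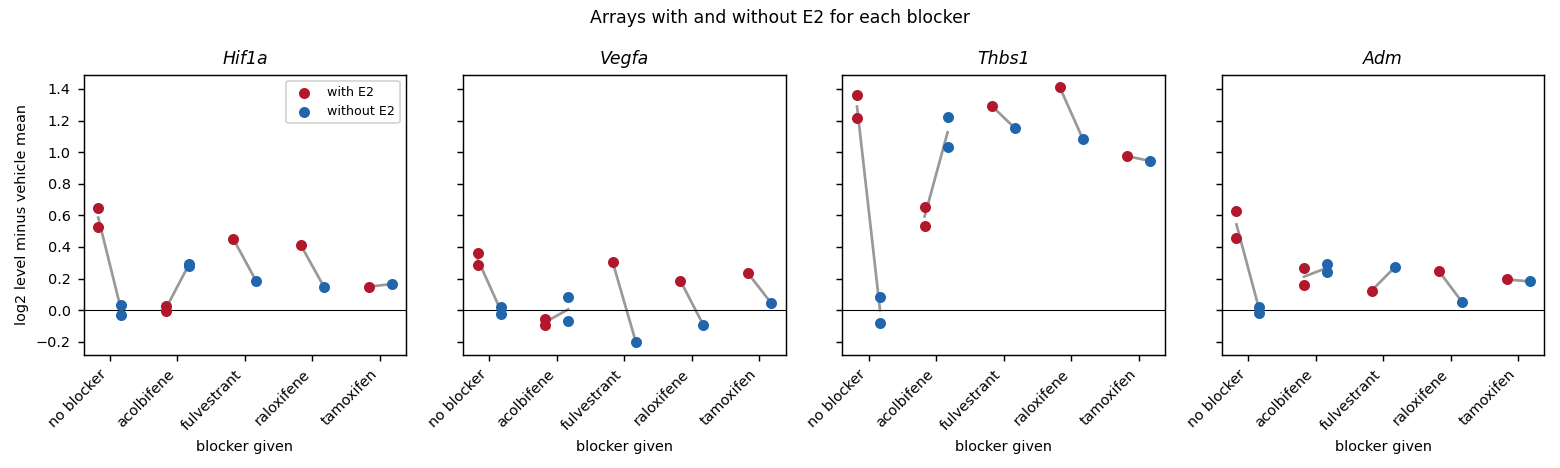
Log2 level minus the vehicle mean for Hif1a, Vegfa, Thbs1 and Adm, with arrays that received E2 (red) left of those that did not (blue) for each blocker, and grey lines joining group means. For Vegfa the array with E2 was higher by 0.50 with fulvestrant, 0.28 with raloxifene and 0.19 with tamoxifen, and not with acolbifene, where the difference was -0.08.

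Angpt1, which stabilises vessels through the receptor Tie2, did not pass the test in any comparison. Probe set 1439066_at lay between 8.33 and 8.63 on the 14 arrays, and E2 minus vehicle was 0.01 with a 95% interval of -0.22 to 0.24. Angpt2, which is known to act against Angpt1 at that receptor, was also called in no comparison. Its probe set 1448831_at lay between 7.71 and 8.14, and its E2 minus vehicle difference of 0.19 (95% interval -0.06 to 0.45) overlapped between the groups, since vehicle array 1 read 7.71 and vehicle array 2 read 8.04. The second probe sets, 1421441_at for Angpt1 and 1459636_at for Angpt2, were not called either, and 1459636_at was dim with a mean of 5.48, below the 40 percentile of all probe sets (6.65).

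Kdr, the signalling receptor for VEGF-A on endothelial cells, read below vehicle on every other array and passed the test as lower in E2+acolbifene. Its single probe set 1449379_at read 10.51 and 10.49 on the E2 arrays, 10.20 and 10.16 on the E2+acolbifene arrays, 10.43 and 10.38 on the acolbifene arrays, and 10.68 and 10.59 on the vehicle arrays. All 12 other arrays lay below both vehicle arrays, which 3.76% of all probe sets also showed. E2+acolbifene was lower than vehicle by -0.46 ± 0.09 (1.37-fold lower, 95% interval -0.65 to -0.27, adjusted p = 0.0365). That call was lost in 6 of 15 alternatives, with adjusted p = 0.158 and 0.147 without vehicle array 1 or 2, 0.139 and 0.212 without E2+acolbifene array 1 or 2, and 0.099 with a further quantile normalization, where the change was -0.34. E2 minus vehicle was -0.14 (95% interval -0.33 to 0.05, adjusted p = 0.398) and acolbifene minus vehicle -0.23 (adjusted p = 0.225). The arrays without a replicate read 10.20 with E2+fulvestrant, 10.11 with E2+raloxifene, 10.07 with E2+tamoxifen, 10.15 with fulvestrant, 10.08 with raloxifene and 10.19 with tamoxifen, all 6 with code R136. The 2 E2 arrays, which carry both codes, differed by 0.03. In the fit with the code, the differences of these arrays from vehicle ran from -0.60 in E2+tamoxifen to -0.46 in E2+fulvestrant, and none was called (lowest adjusted p = 0.373).

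Flt1, the receptor that sequesters VEGF-A, was called in no comparison at any of its 4 probe sets in the fits described. Without the raw-file code, E2+tamoxifen minus vehicle was called at 1419300_at (-0.45, adjusted p = 0.0394), against -0.21 (adjusted p = 0.746) with it. On 1419300_at it lay between 8.93 on the E2+tamoxifen array and 9.45 on E2 array 2, and 11 of the 12 other arrays lay below both vehicle arrays, which read 9.35 and 9.40. E2 minus vehicle was -0.04 with a 95% interval of -0.25 to 0.17. The probe sets 1451756_at, 1454037_a_at and 1440926_at ranged from 8.88 to 9.31, from 7.43 to 7.99 and from 7.24 to 7.59.

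Markers of endothelial cells, which carry these receptors, were read beside them. All 15 markers were measured. By limma 0 were called in E2 minus vehicle, acolbifene minus vehicle, E2+acolbifene minus vehicle or E2+acolbifene minus E2. At an unadjusted p under 0.05, 8751 of the 45037 probe sets differed in either direction between E2+acolbifene and vehicle. Of the markers, 6 were lower there and 0 higher. Their mean level was 10.11 and 10.18 on the E2 arrays, 10.04 and 10.01 on the E2+acolbifene arrays, 10.29 and 10.25 on the acolbifene arrays and 10.15 and 10.19 on the vehicle arrays. It was 10.09 on the E2+fulvestrant array, 10.07 on E2+raloxifene, 9.93 on E2+tamoxifen, 10.08 on fulvestrant, 10.06 on raloxifene and 10.09 on tamoxifen. The median marker change in E2+acolbifene minus vehicle was -0.16, against -0.46 for Kdr, and the part of the markers in the Kdr result was not tested. In E2+acolbifene minus acolbifene 3 markers were lower, Sox18 (-0.48), Vwf (-0.41) and Cd34 (-0.32), where 5.67% of all probe sets were lower. None of the 11 pericyte and smooth muscle markers was called in the 6 comparisons of replicated groups.

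In a chosen list of 34 further VEGF, angiopoietin and vessel guidance genes, 33 were measured. After E2, where 2.07% of all probe sets were higher, 3 listed genes were higher and 0 lower, with a median change of 0.05. They were the chemokine receptor Cxcr4 (0.74, adjusted p = 0.017), the growth factor Pdgfa (0.59, adjusted p = 0.00467) and the PDGF receptor Pdgfra (0.55, adjusted p = 0.00919), which is also a fibroblast marker. Pdgfra read 11.83 and 11.94 on the E2 arrays, 11.39 and 11.34 on the E2+acolbifene arrays, 11.73 and 11.57 on the acolbifene arrays, and 11.30 and 11.37 on the vehicle arrays, so E2+acolbifene overlapped with vehicle. In E2+acolbifene minus E2, 2 genes of the list were lower and 0 higher, Pdgfra (-0.52, adjusted p = 0.0199) and the apelin receptor gene Aplnr (-0.39, adjusted p = 0.0435), called in 10 and 6 of 15 alternatives. Against acolbifene, E2+acolbifene was lower for Vegfd (-0.42) and Cxcl12 (-0.38), each called in 9 of 15 alternatives. In that comparison 5.67% of all probe sets were lower, so the share of the list is near that of all probe sets. The acolbifene effect with E2 minus that without E2 was negative for Cxcr4 (-0.95), Pdgfra (-0.84) and Pdgfa (-0.63). They were called in 8, 13 and 7 of 15 alternatives, in that order.

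Thbs1, the thrombospondin that opposes angiogenesis, was higher than in vehicle glands on every other array, and with E2+acolbifene it stood between vehicle and E2. Probe set 1460302_at read 9.57 and 9.71 on the E2 arrays, 8.88 and 9.01 on the E2+acolbifene arrays, 9.57 and 9.38 on the acolbifene arrays, and 8.43 and 8.27 on the vehicle arrays. All 12 other arrays lay above both vehicle arrays, as did those of 2.48% of all probe sets, and the E2+acolbifene arrays were the lowest of the 12. Means were 9.64 ± 0.10 in E2, 8.94 ± 0.09 in E2+acolbifene, 9.48 ± 0.13 in acolbifene and 8.35 ± 0.11 in vehicle (SD, n = 2 arrays each). E2 raised it by 1.29 ± 0.10 (SE, 2.44-fold, adjusted p = 7.57e-05) and acolbifene by 1.13 ± 0.10 (2.18-fold, adjusted p = 0.00152), and both calls held in 15 of 15 alternatives. The 2 compounds together gave less than either alone. E2+acolbifene was above vehicle by 0.59 (1.51-fold, adjusted p = 0.0305), below E2 by -0.70 (adjusted p = 0.011) and below acolbifene by -0.53 (adjusted p = 0.0208). The acolbifene effect with E2 minus that without E2 was -1.82 ± 0.15 (adjusted p = 0.000331), called in 15 of 15 alternatives.

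The Thbs1 calls that involve E2+acolbifene depended on single arrays. E2+acolbifene minus vehicle gave 0.67 (adjusted p = 0.0921) without vehicle array 1 or 0.51 (adjusted p = 0.196) without vehicle array 2, and 0.65 (adjusted p = 0.123) without E2+acolbifene array 1 or 0.53 (adjusted p = 0.207) without array 2. E2+acolbifene minus E2 was lost without E2 array 2 (adjusted p = 0.0793) and without E2+acolbifene array 1 or 2 (0.0615 and 0.0558). E2+acolbifene minus acolbifene was lost without acolbifene array 1 (adjusted p = 0.116), without E2+acolbifene array 1 or 2 (0.0785 and 0.107) and with a further quantile normalization (0.0656). The second probe set, 1450377_at, moved the same way in all of these comparisons: E2 minus vehicle was 0.58 (adjusted p = 0.0144), acolbifene minus vehicle 0.84 (adjusted p = 0.00684), and E2+acolbifene minus acolbifene -0.53 (adjusted p = 0.0217). On it, E2+acolbifene minus vehicle (0.31, adjusted p = 0.156) and E2+acolbifene minus E2 (-0.27, adjusted p = 0.153) did not pass the test.

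The other blockers also went with high Thbs1. The arrays read 9.64 with E2+fulvestrant, 9.76 with E2+raloxifene, 9.33 with E2+tamoxifen, 9.502 with fulvestrant, 9.44 with raloxifene and 9.30 with tamoxifen. E2+raloxifene was the highest and the tamoxifen arrays, with and without E2, were the lowest of these 6. In the fit with the raw-file code, Thbs1 passed the test against vehicle in E2+raloxifene (1.56, adjusted p = 0.0355, with 0.0533% of all probe sets higher), in E2+fulvestrant (1.43, adjusted p = 0.0367, with 0.0999% higher) and in fulvestrant (1.29, adjusted p = 0.04999, with 0.14% higher). It was the only member called in a comparison with an array without a replicate, and each of these 3 calls was lost when any of the 6 vehicle, acolbifene and E2+acolbifene arrays was left out. Raloxifene minus vehicle was 1.23 (adjusted p = 0.184, with 0.00888% of all probe sets called), E2+tamoxifen minus vehicle 1.12 (adjusted p = 0.123, with 0.0844% of all probe sets called) and tamoxifen minus vehicle 1.09 (adjusted p = 0.293, with 0.0111% of all probe sets called). The 3 single arrays with a blocker alone lay between 9.30 and 9.502, and the 2 acolbifene arrays read 9.57 and 9.38. The range of the single arrays and the gap between the acolbifene arrays are of like size. Between fulvestrant, raloxifene and tamoxifen, alone or with E2, no member was called by limma in 6 comparisons. Of all probe sets, 0.0333% were called for fulvestrant minus raloxifene, 0.0466% for fulvestrant minus tamoxifen and 0.00222% for raloxifene minus tamoxifen. With E2 the shares were 0.0644% for fulvestrant minus raloxifene, 0.0289% for fulvestrant minus tamoxifen and 0.102% for raloxifene minus tamoxifen. The member changes ran from -0.07 to 0.40 in E2+fulvestrant minus E2+tamoxifen, with a median of 0.17 against 0.01 over all probe sets. In E2+raloxifene minus E2+tamoxifen they ran from -0.05 to 0.44, with a median of 0.14 against 0.02. In the rest of these comparisons the median of the members lay between -0.01 and 0.03.

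Markers of cells that can hold thrombospondin-1 were read beside it, and their part in its result was not tested. The mean level of 9 macrophage markers was 10.98 and 10.94 on the E2 arrays, 10.98 and 10.97 on the E2+acolbifene arrays, 11.42 and 11.40 on the acolbifene arrays, and 11.19 and 11.15 on the vehicle arrays. After E2, 2 of the 9 were lower, Cd68 (-0.60) and Msr1 (-0.45), and none was higher. After acolbifene, where Thbs1 rose, Cd14 was higher (0.57, adjusted p = 0.0173), and in E2+acolbifene minus acolbifene, where Thbs1 was lower, 6 of the 9 were lower. The mean of 5 platelet markers was 8.11 and 8.10 on the E2 arrays, 8.33 and 8.33 on the E2+acolbifene arrays, 8.25 and 8.26 on the acolbifene arrays, and 8.23 and 8.24 on the vehicle arrays, and the platelet chemokine gene Ppbp, which was dim, was lower after E2 by -0.43 and higher in E2+acolbifene than in E2 by 0.73. Of 7 measured adipocyte markers 0 were higher and 1 (Lep, -0.88) lower after E2, of 4 lymphatic markers 0 and 1 (Pdpn, -0.43), of 7 fibroblast markers 1 (Pdgfra) and 0, and of 12 skeletal muscle genes 0 and 0. Against vehicle, where Thbs1 was called in fulvestrant and E2+fulvestrant, the fit with the raw-file code called all 12 muscle genes higher in fulvestrant and 5 in E2+fulvestrant. The measured mean of the 12 was 10.82 on the fulvestrant array and 10.07 on the E2+fulvestrant array, against 10.13 and 10.14 on the vehicle arrays, so E2+fulvestrant itself read below vehicle. The code term, which lifts the fitted values, rests on the E2 arrays, at 9.32 and 10.59. For Thbs1 the plain differences from vehicle were 1.15 in fulvestrant and 1.29 in E2+fulvestrant, and the part of the muscle genes was not tested.

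All 19 genes of a chosen list of thrombospondins, their receptors and matrix inhibitors of angiogenesis were measured. After E2, 3 were higher and 0 lower, with a median of 0.10: Adamts1, a protease known to have antiangiogenic activity (1.47, adjusted p = 1.48e-05), Thbs2, the close relative of Thbs1 (1.00, adjusted p = 0.000484), and the integrin gene Itgb3 (0.48, adjusted p = 0.0205). Adamts1 read 10.31 and 10.46 on the E2 arrays, 9.29 and 9.24 on the E2+acolbifene arrays, 9.62 and 9.43 on the acolbifene arrays, and 8.94 and 8.89 on the vehicle arrays. Thbs2 read 10.89 and 10.95 on the E2 arrays, 10.14 and 9.99 on the E2+acolbifene arrays, 10.36 and 10.08 on the acolbifene arrays, and 9.93 and 9.93 on the vehicle arrays. Both were lower in E2+acolbifene than in E2, Adamts1 by -1.12 (adjusted p = 0.000626) and Thbs2 by -0.86 (adjusted p = 0.00399), in 15 of 15 alternatives each. Itgb3 after E2 was called in 9. Adamts1 (-1.73), Thbs2 (-1.15) and Itgav (-0.56) were called for the acolbifene effect with E2 minus that without E2, the last called in 6 of 15 alternatives. After acolbifene alone Thbs4 (0.67, adjusted p = 0.0224) and Adamts1 (0.61, adjusted p = 0.0213) were higher and 0 genes of the list lower. Compared with acolbifene, E2+acolbifene had 5 of the genes lower and 0 higher, Thbs4 (-0.47), Itgav (-0.43), Tgfbr2 (-0.42), Tgfb1 (-0.38) and Cd47 (-0.32), the last being a receptor for thrombospondin-1. Of these, Thbs4 was called in 11 of 15 alternatives, Itgav, Tgfbr2 and Tgfb1 in 9 each and Cd47 in 3. Adamts1 was also called above vehicle in E2+fulvestrant (1.31, adjusted p = 0.0362) and in E2+tamoxifen (1.29, adjusted p = 0.0461). Of all probe sets, 2.07% were higher in E2 minus vehicle and 5.67% lower in E2+acolbifene minus acolbifene.

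Adm, which encodes the vasodilator peptide adrenomedullin, was raised by E2 and lay above vehicle on every other array. Probe set 1447839_x_at read 9.18 and 9.003 on the E2 arrays, 8.81 and 8.70 on the E2+acolbifene arrays, 8.84 and 8.79 on the acolbifene arrays, and 8.53 and 8.57 on the vehicle arrays. The E2 arrays were the highest of the 14, and the 10 remaining arrays lay between 8.60 and 8.84. E2 minus vehicle was 0.54 ± 0.09 (SE, 1.46-fold, adjusted p = 0.0098). The call was lost without E2 array 1 and with the R136 or R137 code as a term, both of which set E2 array 2 against vehicle (0.46, adjusted p = 0.0914), and without vehicle array 1 (0.52, adjusted p = 0.0858). Acolbifene (0.27, adjusted p = 0.202) and E2+acolbifene (0.21, adjusted p = 0.243) did not pass the test against vehicle, nor did E2+acolbifene minus E2 (-0.33, adjusted p = 0.0688). The acolbifene effect with E2 minus that without E2 was -0.60 ± 0.13 (adjusted p = 0.0345), which was called in 5 of 15 alternatives and had adjusted p-values up to 0.119. On 1416077_at E2 minus vehicle was 0.39 (adjusted p = 0.0381), and the 12 other arrays again lay above both vehicle arrays.

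With the other blockers, Adm read 8.67 on the E2+fulvestrant array, 8.79 on E2+raloxifene and 8.74 on E2+tamoxifen, and 8.82, 8.60 and 8.73 on fulvestrant, raloxifene and tamoxifen. In the fit with the code, which compares them with E2 array 1, the arrays with E2 and a blocker were lower than E2 by -0.51, -0.38 and -0.44 in the same order, and none of these passed the test (lowest adjusted p = 0.213). No member was called in these 3 comparisons, in which 0.0222%, 0.0955% and 0.0133% of all probe sets were called. The 2 E2 arrays differed by 0.17 on 1447839_x_at, the probe set of these values. On 1416077_at the E2 arrays read 8.96 and 8.82, against 8.86 with E2+fulvestrant, 8.99 with E2+raloxifene and 8.77 with E2+tamoxifen. There the E2+raloxifene array was the highest, and the fulvestrant array (8.88) lay above E2 array 2.

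Edn1, the vasoconstrictor endothelin-1, was called in no comparison. Probe set 1451924_a_at lay between 8.00 on the E2+tamoxifen array and 8.52 on an E2+acolbifene array, with 8.33 and 8.43 on the E2 arrays and 8.33 and 8.30 on the vehicle arrays. Nos3, the endothelial nitric oxide synthase, read 9.56 and 9.62 on the E2 arrays, 9.59 and 9.67 on the E2+acolbifene arrays, 9.80 and 9.89 on the acolbifene arrays, and 9.82 and 9.93 on the vehicle arrays. The E2 and E2+acolbifene arrays lay below vehicle without overlap, but neither E2 (-0.28, adjusted p = 0.105) nor E2+acolbifene (-0.24, adjusted p = 0.183) passed the test. E2 minus vehicle did so only with an intensity trend (adjusted p = 0.04). Nos3 was also low on the arrays without a replicate, at 9.63 with E2+fulvestrant and between 9.29 and 9.47 on the other 5. Here too the 2 E2 arrays, with different codes, differed by -0.06 (array 1 minus array 2).

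**Figure D4:**
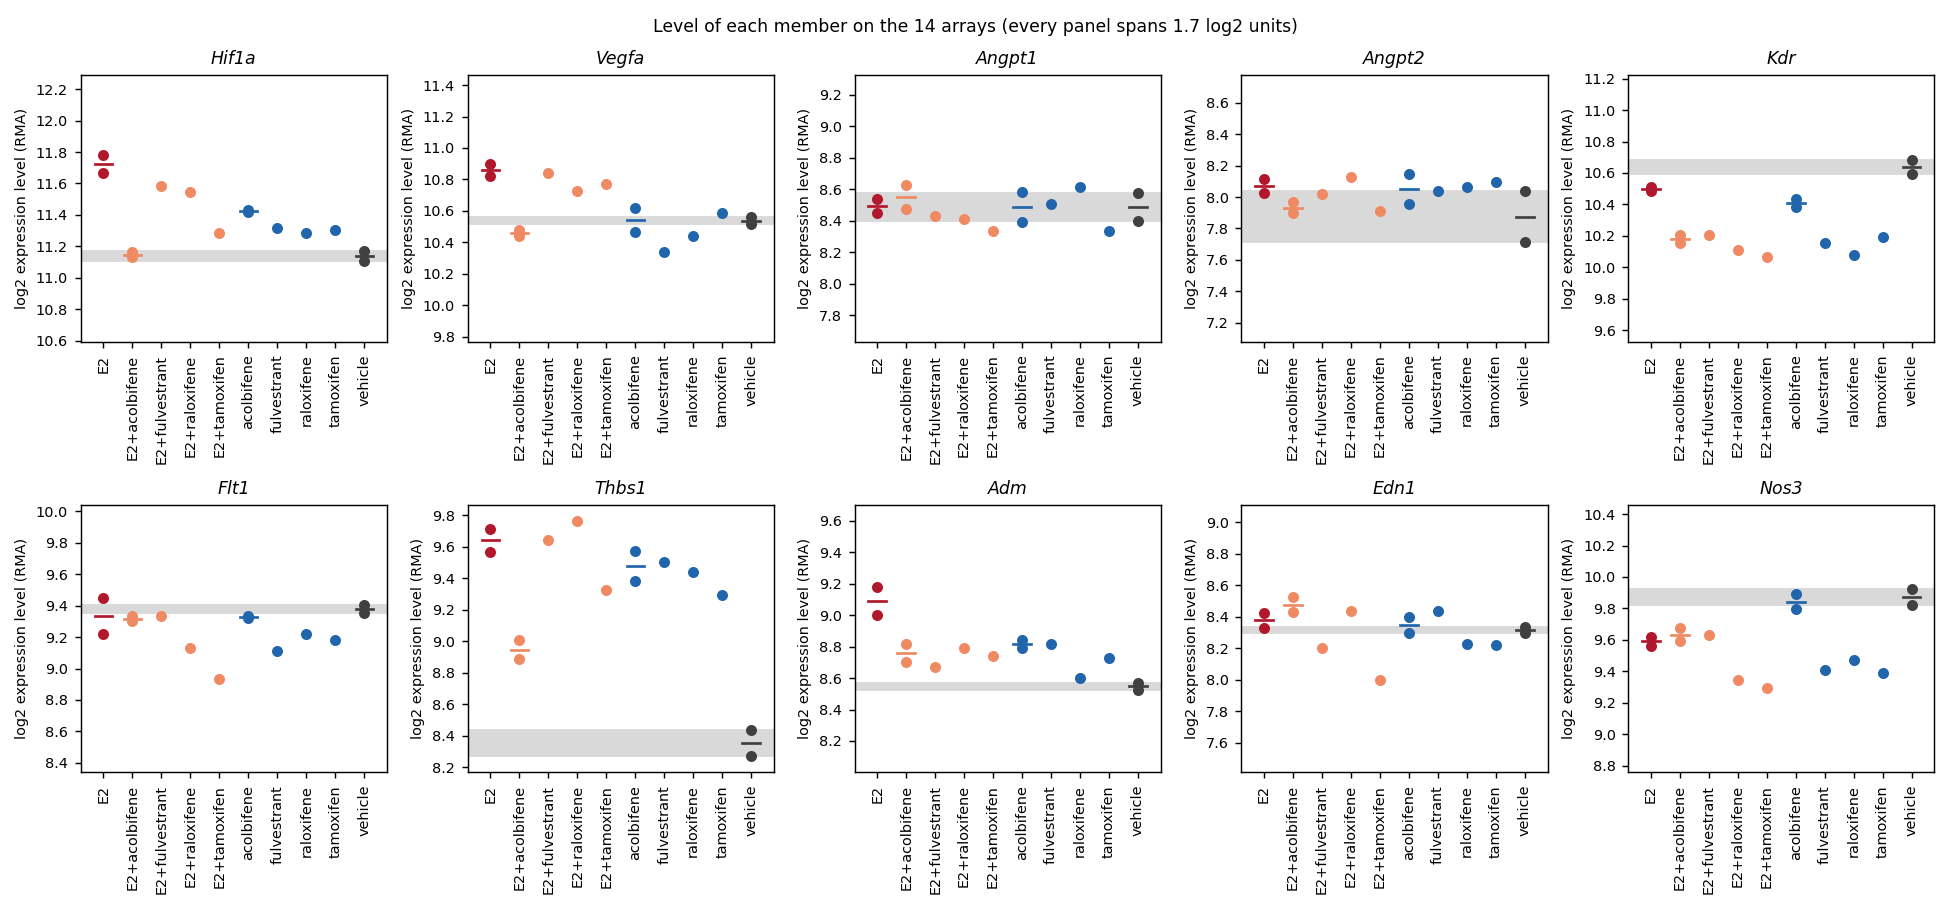
Log2 level of each of the 10 members on the 14 arrays by group, each panel spanning 1.7 log2 units, with group means as bars where there are 2 arrays and the vehicle range shaded. Thbs1 and Adm lay above the vehicle range on all 12 other arrays and Kdr below it on all 12, while Angpt1 stayed between 8.33 and 8.63.

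Of 35 further vasoactive genes in a chosen list, 33 were measured. After E2, 2.07% of all probe sets were higher. In the list 1 gene was higher and 0 lower, a share near that of all probe sets, with a median of 0.05. This was Hmox1, the heme oxygenase that makes carbon monoxide (1.19, adjusted p = 0.00227), although its E2 arrays lay far apart at 10.42 and 9.78, against 9.44 and 9.37 on the E2+acolbifene arrays, 9.88 and 9.95 on the acolbifene arrays, and 8.90 and 8.92 on the vehicle arrays. Acolbifene raised Hmox1 (1.00, adjusted p = 0.0193) and Ddah1, which breaks down inhibitors of nitric oxide synthase (0.61, adjusted p = 0.0213). In E2+acolbifene minus E2, Hmox1 (-0.69, adjusted p = 0.0405) and Gucy1b1, a subunit of the nitric oxide receptor (-0.54, adjusted p = 0.0191), were lower and 0 genes of the list higher, in 6 and 9 of 15 alternatives. Relative to acolbifene, 4 were lower in E2+acolbifene, Ddah1 (-0.63), Ednrb (-0.38), Ace (-0.36) and Ptgis (-0.30), and the dim Nppc was higher by 0.40. Ddah1 was called there in 11 of 15 alternatives, Ace in 9, Ednrb in 7 and Ptgis in 4, and Nppc in 3 of 14. In that comparison 5.67% of all probe sets were lower and 3.52% higher. The acolbifene effect with E2 minus that without E2 was negative for Hmox1 (-1.70), Ddah1 (-0.97) and the endothelin receptor gene Ednrb (-0.67). For this effect Hmox1 and Ddah1 were called in 15 of 15 alternatives and Ednrb in 6.

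Across the 10 group means, genes of the whole array were ranked by likeness to each called member among 913 probe sets whose group means span at least 0.8 log2 units. Thbs1 was closest to Hmox1 (Pearson r = 0.99), the complement receptor gene C5ar1 (0.91) and Ptx3 (0.90). Hmox1 had mean levels of 10.10 in E2, 9.41 in E2+acolbifene, 9.91 in acolbifene and 8.91 in vehicle. Vegfa was closest to Ackr3 (0.93), a chemokine receptor gene, Tgm2 (0.92) and Zbtb8a (0.92). Hif1a was closest to Spty2d1 (0.90), Nupl1 (0.87) and Atp8b1 (0.87), Adm to the metallothionein gene Mt1 (0.84), Cxcr4 (0.83) and Nfil3 (0.82), and Kdr to Pde4b (0.94), Etnk1 (0.92) and Snrpd3 (0.92). Among the members themselves, the endothelial genes Nos3 and Flt1 (0.86) and Nos3 and Kdr (0.80) ran most alike, with Thbs1 and Angpt2 (0.79) and Thbs1 and Hif1a (0.78), while the most negative values were those of Angpt1 and Vegfa (-0.53), Nos3 and Thbs1 (-0.51) and Thbs1 and Kdr (-0.49). These are descriptions over 10 points that share arrays, pools and the raw-file code, and 6 of the points are single arrays.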

How the data were processed

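Expression was measured on 14 Affymetrix arrays of pooled mammary glands. The authors deposited log2 values, which the submitters' processing notes credit to RMA without a version. RMA subtracts background, equalises the arrays' distributions and combines the probes of a probe set, which compresses small folds and weak signals. The design text names U74Av2 arrays, whereas the 45101 probe sets are those of the Mouse Genome 430 2.0 array. After 64 control probe sets were left out, 45037 were tested; platform annotation supplied for the deposited table gave 1 symbol to 34945 of the 45037 probe sets, several to 932 and none to 9160. No doses are printed: the sources used here give none for the blockers, and the unit of that for E2 is in doubt. The number of arrays limits the precision.

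Tests used limma 3.58.1 (R 4.3.3; lmFit, then eBayes) with Benjamini-Hochberg adjustment across the whole table and a threshold of 0.05. The 6 comparisons of replicated groups used 8 arrays with no other term. The 18 comparisons with an array without a replicate were fitted on 14 arrays, adding the code in the raw-file names, and assume that such an array varies like the replicated groups; those with vehicle pass through the 2 E2 arrays and those with E2 rest on E2 array 1. The fits were also run on simulated data with independent noise and no effect of the raw-file code. That run cannot show how the fits handle shared pools or the code. Replicate numbers were not used to pair the samples in the main fit. The deviations of same-numbered arrays correlated between -0.12 and 0.12, but with 2 arrays a group this cannot show that pairing was absent. Members were always named; genes of 4 pathway lists were named where called, up to 5 each way. The 9 marker lists were read beside them, and not every called marker is named. The members and lists were chosen with earlier results of these data known. The alternatives were the replicate block, the raw-file code, all 14 arrays, an intensity trend, dim probe sets left out, a further quantile normalization, the mean of a gene's probe sets and each replicated array left out.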

Additional observations from a re-analysis of the deposited data

Results flagged for a closer look

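The acolbifene effect differed with and without E2 for 3 members, by limma's test of the difference itself. For Thbs1 the difference was -1.82 (adjusted p = 0.000331): acolbifene with E2 lowered it relative to E2, while acolbifene alone raised it relative to vehicle. For Hif1a it was -0.86 (adjusted p = 0.00743), with a lowering next to E2 and 0.29 without E2, which did not pass the test. For Adm it was -0.60 (adjusted p = 0.0345), where neither of the effects it is made of passed the test. These values are those of each member's probe set of highest mean. On Hif1a probe set 1431981_at, E2+acolbifene (7.47) lay above E2 (7.23) and acolbifene (7.17) above vehicle (7.01), so no lowering next to E2 was seen. On the other probe sets of the 3 members, the mean was lower in E2+acolbifene than in E2 and higher in acolbifene than in vehicle. The causes of the differences were not tested.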

How the results depend on the processing

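Each count of called members was recomputed under up to 15 alternatives, and no called value changed sign. Against main counts of 3, 1, 2, 3 and 1, an intensity trend gave 5 for E2 minus vehicle, 2 for acolbifene minus vehicle, 2 for E2+acolbifene minus vehicle, 5 for E2+acolbifene minus E2 and 3 for E2+acolbifene minus acolbifene. Leaving out dim probe sets gave 5 and 2 in the last 2 of these. A further quantile normalization gave 1 for E2+acolbifene minus vehicle and 0 for E2+acolbifene minus acolbifene. The replicate block gave 1 for E2+acolbifene minus vehicle, where Kdr had adjusted p = 0.0518, and it also ended the Vegfa call in E2+acolbifene minus E2 (adjusted p = 0.0566). Leaving out each array in turn gave 2 to 3, 1 to 1, 0 to 2, 0 to 3 and 0 to 1 in these comparisons and 2 to 2 for the acolbifene effect with E2 minus that without E2, against 3. In the fit of 14 arrays, fulvestrant, E2+fulvestrant and E2+raloxifene minus vehicle had 1 each, and 0 whenever an array was left out; the other comparisons of that fit gave 0 to 0. For fulvestrant minus vehicle quantile normalization and the mean of probe sets gave 0. For E2+fulvestrant minus vehicle the trend gave 2 and quantile normalization 0. For E2+raloxifene minus vehicle no code gave 3, the trend 3, and quantile normalization and the mean of probe sets 0. For E2+tamoxifen minus vehicle no code gave 4 and the trend 2, against 0; for E2+tamoxifen minus E2 both gave 2, for raloxifene and for tamoxifen minus vehicle both gave 1, and for E2+raloxifene minus E2 and E2+fulvestrant minus fulvestrant the trend gave 1. Comparisons with vehicle in that fit cannot be estimated without either E2 array, nor those with E2 without E2 array 1. Over all probe sets, E2 minus vehicle had 1685 calls, against 479 with the raw-file code, 2720 with the trend, 916 genes with the mean of probe sets and 430 to 1615 with an array left out. Acolbifene minus vehicle had 269, against 1437 with the trend, 706 without dim probe sets and 27 to 194 with an array left out. E2+acolbifene minus vehicle had 377, against 1733 with the trend, 630 without dim probe sets and 34 to 409. E2+acolbifene minus E2 had 1649, against 284 with the code, 1002 with the block, 3030 with the trend, 1034 with quantile normalization, 776 genes and 116 to 1481. E2+acolbifene minus acolbifene had 4142, against 2303 with the block, 7219 with the trend, 1141 with quantile normalization, 2634 genes and 38 to 3367. The acolbifene effect with E2 minus that without E2 had 2011, against 1113 with the code, 1193 with the block, 4176 with the trend, 1114 with quantile normalization, 1250 genes and 186 to 1444. Adding the 6 unreplicated arrays to the fit of 8 left every one of these counts as it was, by construction, since an array without a replicate adds nothing to the estimate of the spread. The other causes were not tested. Signal over background limits the dim probe sets, and 2 pooled arrays a group limit the rest.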
